A study of Mus musculus with 8 samples.

Results

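The 10 genes described here encode 8 Toll-like receptors (Tlr1, Tlr2, Tlr3, Tlr4, Tlr6, Tlr7, Tlr9 and Tlr13), the adaptor Myd88 and the co-receptor Cd14. They were chosen by name and are 10 of the 57010 mouse Ensembl identifiers in the count table. The data are RNA-seq of whole mouse retina, from 4 groups of 2 libraries each. WT P15 were wild-type retinas at postnatal day 15, and rd10 P15, rd10 P18 and rd10 P21 were retinas at postnatal days 15, 18 and 21 from mice homozygous for rd10, a mutation of the rod phosphodiesterase gene Pde6b under which rods degenerate. Each library was made from poly(A)-selected RNA of 1 retina, and the labels name no treatment. The labels give the genotype and the age but no sex, and the study's methods give wild-type littermates as the controls of rd10 mice, besides purchased C57BL/6J mice. WT retinas at P18 and P21 were not analysed here, so that at those ages genotype and age cannot be told apart.

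Toll-like receptors recognize molecules of microbes and of damaged cells. Tlr1, Tlr2, Tlr4 and Tlr6 lie at the cell surface and bind lipids and lipopeptides, whereas Tlr3, Tlr7, Tlr9 and Tlr13 lie in endosomes and bind nucleic acids. All of these except Tlr3 signal through Myd88, which recruits the IRAK kinases and leads to NF-kB and cytokine genes, and Tlr3 signals through Ticam1. In the retina these genes are known from microglia, the resident macrophages, and in part from Müller glia and other cells.

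Total counts lay between 28076947 and 33724562 per library, and levels are given in CPM, the counts scaled to library size by TMM. All 10 genes were among the 20457 genes tested, but Tlr6 and Tlr9 had 2 and 4 counts over both WT libraries. Tlr1 had 14 and 6 counts in WT and 3 and 0 in rd10 P15. These genes entered the test through the rd10 libraries, Tlr1 through those of P18 and P21. Counts over the 10 genes are therefore a description. Xist had 26338 to 80032 counts in 4 libraries, both of WT and the second of each later rd10 age, and Y-linked genes had 5530 to 7193 counts in the other 4. Sex and genotype therefore changed together at P15. The summed level of 12 microglia markers was 75.4 to 87.1 CPM in WT and, for rd10, 112 to 113 CPM at P15, 294 to 306 CPM at P18 and 212 to 409 CPM at P21. In whole retina, more cells of a type and more RNA per cell cannot be told apart.

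At P18 all 10 genes had a positive log2 fold change in rd10 against WT P15, as 51.0% of all genes had, and for 9 of them both rd10 libraries lay above both WT libraries. Over all genes tested, 24.1% were placed this way. The log2 fold changes ran from 0.65 for Tlr4 to 4.33 for Tlr6 with a median of 1.85, against a median of 0.01 over all genes. A gene was called where the edgeR quasi-likelihood test gave an adjusted p under 0.05 with a log2 fold change beyond 1 in either direction. By this rule 0 of the 10 were called, as against 1.48% of all genes. Of the 10, 6 had an unadjusted p under 0.05 (17.4% of all genes), and DESeq2 called 5 (4.7% of all genes), namely Tlr2, Tlr3, Tlr7, Tlr9 and Cd14. At P15 the levels of 8 genes overlapped between rd10 and WT.

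**Figure D1:**
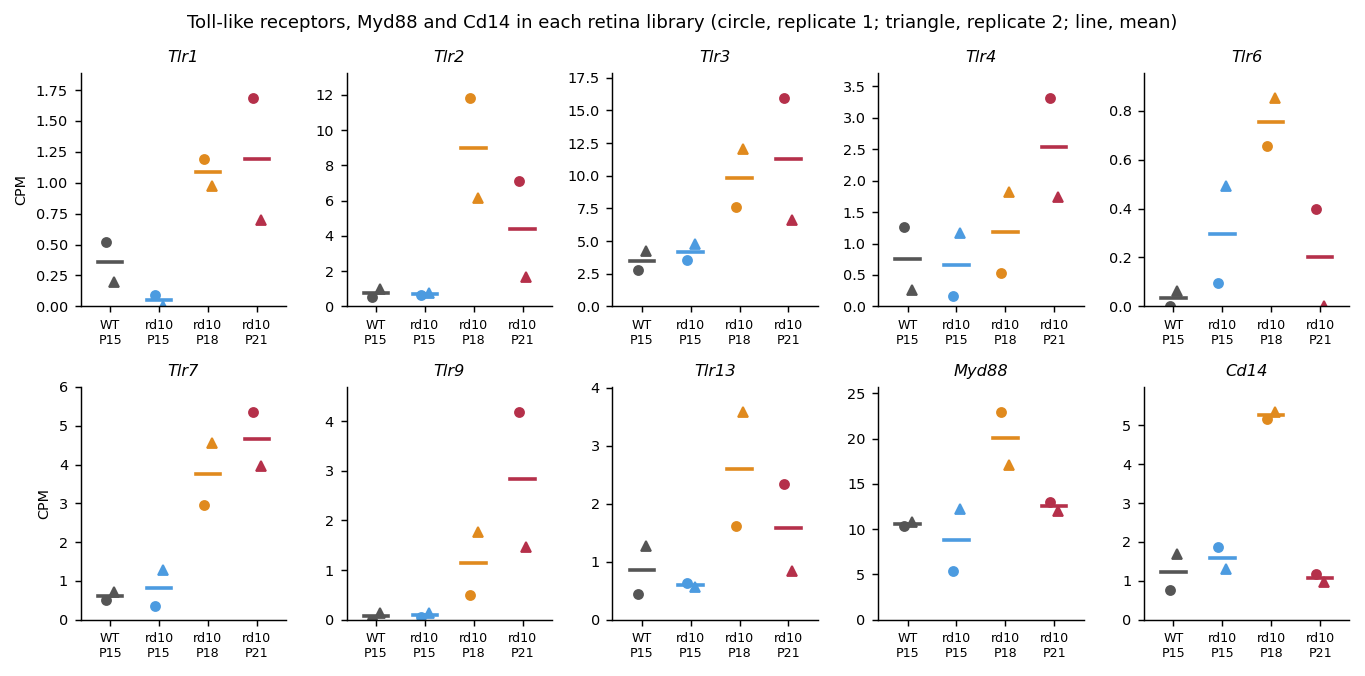
CPM of each of the 10 genes (y axes, linear and scaled per gene) in the 8 libraries by group (x axes); circles are replicate 1, triangles replicate 2 and lines the group means. Both rd10 P18 libraries sit above both WT P15 libraries for all genes but Tlr4, and the 2 rd10 P21 libraries lie far apart for most.

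Tlr2, the receptor for bacterial lipopeptides, is the surface receptor with the largest difference relative to its error. The gene (ENSMUSG00000027995) lies on the minus strand at chr3:83836272-83841767 in GRCm38. Its counts were 14 and 30 in WT and, for rd10, 20 and 22 at P15, 396 and 195 at P18 and 249 and 48 at P21. On the CPM scale this was, in the same order, 0.517 and 0.971, 0.637 and 0.776, 11.8 and 6.14, and 7.11 and 1.68. WT and rd10 P15 overlapped, and all 4 later rd10 libraries were above all 4 libraries of P15. Against WT P15 the log2 fold change was 3.58 at P18 (SE 0.73, n = 2 per group, edgeR adjusted p = 0.0543) and 2.55 at P21 (SE 0.71, edgeR adjusted p = 0.189). DESeq2 gave adjusted p = 3.83e-05 at P18 and 0.014 at P21. At P18 Tlr2 was called by edgeR without rd10 P21 replicate 1 (adjusted p = 0.025) or replicate 2 (adjusted p = 0.0207). It was called also without rd10 P18 replicate 2 (log2 fold change 3.97, adjusted p = 0.0154), where the lone P18 library is assumed to vary like the other groups. Over all alternatives its adjusted p at P18 ran from 3.83e-05 to 0.328. At P21 its log2 fold change was 1.16 without rd10 P21 replicate 1 and 3.25 without replicate 2.

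The 91 bases that end 160 bases before the RefSeq start of Tlr2 (chr3:83841768-83841858, minus strand, GRCm38.p6) are shown because they hold a match to the letters GGGANNNNCC of NF-kB, the factor that Toll-like receptors activate. Capitals mark the match, which begins 172 bases before the start and reads the same on both strands.

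Tlr2: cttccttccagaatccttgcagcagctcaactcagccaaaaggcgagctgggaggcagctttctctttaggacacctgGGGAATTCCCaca

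The same letters occurred again 8 bases before the start of Tlr2 and in the window of Tlr3. Over all 32851 RefSeq promoter windows of 300 bases, 20.7% held them on either strand, so that many genes share such a match.

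Tlr1 and Tlr6, the partners with which Tlr2 forms its dimers, had at most 59 and 27 counts in any library. Tlr1 (ENSMUSG00000044827, chr5:64924679-64933563, minus strand) had 0.517 and 0.194 CPM in WT and, for rd10, 0.0955 and 0 at P15, 1.19 and 0.977 at P18 and 1.68 and 0.699 at P21. Both rd10 P15 libraries were below both WT libraries, with 3 counts against 20, and both later groups were above WT. Against WT P15 the log2 fold change was 1.60 at P18 (SE 1.13, edgeR adjusted p = 0.507) and 1.74 at P21 (SE 1.13, edgeR adjusted p = 0.616). Against rd10 P15, the ratio of counts per library size at P18 was 21.7, with a 95% interval for counting error of 7.13 to 108. The log2 fold change there was 4.36 (SE 1.33, edgeR adjusted p = 0.232, DESeq2 adjusted p = 0.0315). Tlr6 (ENSMUSG00000051498, chr5:64952031-64960097, minus strand) had 0 and 0.0648 CPM in WT and, for rd10, 0.0955 and 0.493 at P15, 0.656 and 0.851 at P18 and 0.400 and 0 at P21. Only the P18 libraries were both above 0.5 CPM. With 49 counts against 2, the ratio of P18 to WT was 21.8, and its counting interval ran from 5.71 to 185. This interval leaves out the spread between libraries. The log2 fold change of Tlr6 was 4.33 at P18 (SE 2.10, edgeR adjusted p = 0.336, DESeq2 adjusted p = 0.204) and 2.46 at P21 (SE 2.04, edgeR adjusted p = 0.722). Tlr1 and Tlr6 lie next to each other on chromosome 5, and 8.85% of the 100-base stretches of Tlr1 transcripts recur in Tlr6, so that reads can be shared between them.

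The 245 bases before the start of Tlr1 (chr5:64933564-64933808, minus strand, GRCm38.p6) are shown for a match to GAGGAAGT, letters bound by PU.1, the factor of macrophages and microglia. The match, in capitals, begins 23 bases before the RefSeq start.

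Tlr1: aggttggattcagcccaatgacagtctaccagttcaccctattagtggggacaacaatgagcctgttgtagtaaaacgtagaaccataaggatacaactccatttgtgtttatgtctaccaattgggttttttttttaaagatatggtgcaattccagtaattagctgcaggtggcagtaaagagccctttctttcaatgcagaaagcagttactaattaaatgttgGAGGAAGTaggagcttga

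Of all windows, 3.2% held these letters on either strand. Among the 9 windows of 7 of the 10 genes, those of Tlr1 and Tlr9 held them.

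Tlr4, the receptor for bacterial lipopolysaccharide (ENSMUSG00000039005, chr4:66827584-66930284, plus strand), had 1.26 and 0.259 CPM in WT and, for rd10 at P15, 0.159 and 1.16 CPM. At the later ages it had 0.537 and 1.83 CPM (P18) and 3.31 and 1.75 CPM (P21). It was the only gene of the 10 whose P18 libraries overlapped those of WT, and only its P21 libraries were both above WT. Its log2 fold change was 0.65 at P18 (SE 1.07, edgeR adjusted p = 0.813) and 1.74 at P21 (SE 1.09, edgeR adjusted p = 0.6).

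Cd14, which hands lipopolysaccharide to Tlr4 and also serves Tlr2, was lower at P21 than at P18 in both rd10 libraries, as were Myd88 and Tlr6. The gene (ENSMUSG00000051439) lies on the minus strand at chr18:36725067-36726798. Its counts were 21 and 52 in WT and, for rd10, 59 and 37 at P15, 173 and 170 at P18 and 41 and 28 at P21. In CPM these were, in the same order, 0.776 and 1.68, 1.88 and 1.30, 5.16 and 5.36, and 1.17 and 0.979. Only the P18 group stood apart, and P21 overlapped WT. Its log2 fold change was 2.09 at P18 against WT P15 (SE 0.50, edgeR adjusted p = 0.0836, DESeq2 adjusted p = 0.00962) and -0.20 at P21 (SE 0.50, edgeR adjusted p = 0.948). Between the rd10 ages, P21 against P18 gave -2.28 (SE 0.50), with an unadjusted p of 0.0017, an edgeR adjusted p = 0.391 and a DESeq2 adjusted p = 0.0218.

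Among the endosomal receptors, Tlr3 had the highest level per length in every group and Tlr9 the largest ratio to WT at P18 and P21. Tlr3, a receptor for double-stranded RNA (ENSMUSG00000031639, chr8:45395665-45411080, minus strand), had 2.77 and 4.24 CPM in WT and, for rd10, 3.53 and 4.76 at P15, 7.61 and 12.04 at P18 and 15.9 and 6.64 at P21. The 4 later rd10 libraries were above all 4 of P15. Its log2 fold change was 1.48 at P18 (SE 0.47, edgeR adjusted p = 0.157, DESeq2 adjusted p = 0.0404) and 1.69 at P21 (SE 0.47, edgeR adjusted p = 0.187, DESeq2 adjusted p = 0.0216). Without rd10 P21 replicate 1 the latter was 0.92. The antisense gene Gm45542 that overlaps its exons had 0 counts in all libraries.

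Tlr7, a receptor for single-stranded RNA on the X chromosome (ENSMUSG00000044583, chrX:167304929-167330558, minus strand), had 14 and 22 counts in WT and, for rd10, 11 and 36 at P15, 99 and 145 at P18 and 188 and 113 at P21. Its CPM in the same order were 0.517 and 0.712, 0.35 and 1.27, 2.95 and 4.57, and 5.37 and 3.95. All 4 later rd10 libraries exceeded every library of P15. Its log2 fold change was 2.60 at P18 (SE 0.64, edgeR adjusted p = 0.0887) and 2.91 at P21 (SE 0.64, edgeR adjusted p = 0.116), and DESeq2 gave adjusted p = 0.00465 and 0.00168. With only the 4 libraries of the P21 comparison in the fit, Tlr7 was called (edgeR adjusted p = 0.0499), and over all alternatives its adjusted p at P21 ran from 0.00168 to 0.565.

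Tlr9, a receptor for unmethylated CpG DNA (ENSMUSG00000045322, chr9:106222598-106226883, plus strand), had 0 and 4 counts in WT and, for rd10, 2 and 4 at P15, 17 and 56 at P18 and 147 and 42 at P21. Its CPM ranged from 0 to 0.141 at P15 over both genotypes, from 0.507 to 1.76 in rd10 P18 and from 1.47 to 4.20 in rd10 P21. The ratio to WT was 16.2 at P18 (95% counting interval 6.07 to 61.1) and 43 at P21 (16.5 to 160). The edgeR log2 fold changes were 3.999 (SE 1.26, adjusted p = 0.157) and 5.32 (SE 1.30, adjusted p = 0.137), and DESeq2 gave adjusted p = 0.0248 and 0.00154. The P18 value was 2.84 without rd10 P18 replicate 2 and the P21 value 4.38 without rd10 P21 replicate 1. Without WT P15 replicate 1 they were 3.10 and 4.42, and without WT P15 replicate 2, which held all 4 WT counts, they were 8.13 and 9.45, values that depend on the prior count.

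Tlr13, the rodent receptor for bacterial ribosomal RNA, is also X-linked (ENSMUSG00000033777, chrX:106143204-106160493, plus strand). It had 0.444 and 1.26 CPM in WT and, for rd10, 0.636 and 0.564 at P15, 1.61 and 3.59 at P18 and 2.34 and 0.839 at P21. Its P18 libraries were above WT (log2 fold change 1.60, SE 0.77, edgeR adjusted p = 0.334), and its P21 libraries overlapped WT (0.89, SE 0.76, edgeR adjusted p = 0.732). Tlr7 and Tlr13 were higher in the Xist-expressing library of rd10 P18 and lower in that of rd10 P21.

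Myd88, the shared adaptor, had the highest level per length of the 10. The gene (ENSMUSG00000032508) lies on the minus strand at chr9:119335934-119341411. Its counts were 280 and 332 in WT and, for rd10, 168 and 346 at P15, 771 and 542 at P18 and 456 and 345 at P21. In CPM these were, in the same order, 10.3 and 10.7, 5.35 and 12.2, 23 and 17.1, and 13.02 and 12.1. The P18 libraries were above all others and both P21 libraries were above WT by a smaller margin. The log2 fold change was 0.93 at P18 (SE 0.36, edgeR adjusted p = 0.236) and 0.25 at P21 (SE 0.36, edgeR adjusted p = 0.878). Myd88 overlaps the gene Acaa1a on the other strand over 290 exon bases, and without strand in the counting, reads there cannot be told apart. Acaa1a stood at 82.7 to 130 CPM and had a log2 fold change of 0.15 at P18.

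The 227 bases before the RefSeq start of Myd88 (chr9:119340042-119340268, minus strand, GRCm38.p6), which lie inside the longer GENCODE gene, are shown for a match to the letters GAAANNGAAA of the interferon-stimulated response element, to which IRF factors bind. The match, in capitals, begins 40 bases before the start.

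Myd88: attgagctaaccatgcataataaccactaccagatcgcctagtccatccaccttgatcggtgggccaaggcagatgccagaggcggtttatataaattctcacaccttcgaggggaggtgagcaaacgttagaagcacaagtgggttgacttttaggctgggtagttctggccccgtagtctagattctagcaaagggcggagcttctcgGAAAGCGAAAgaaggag

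These letters occurred in 3.44% of all windows, and also in a window of Tlr6, 116 and 110 bases before its start. A match of letters does not show that a factor binds there.

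**Figure D2:**
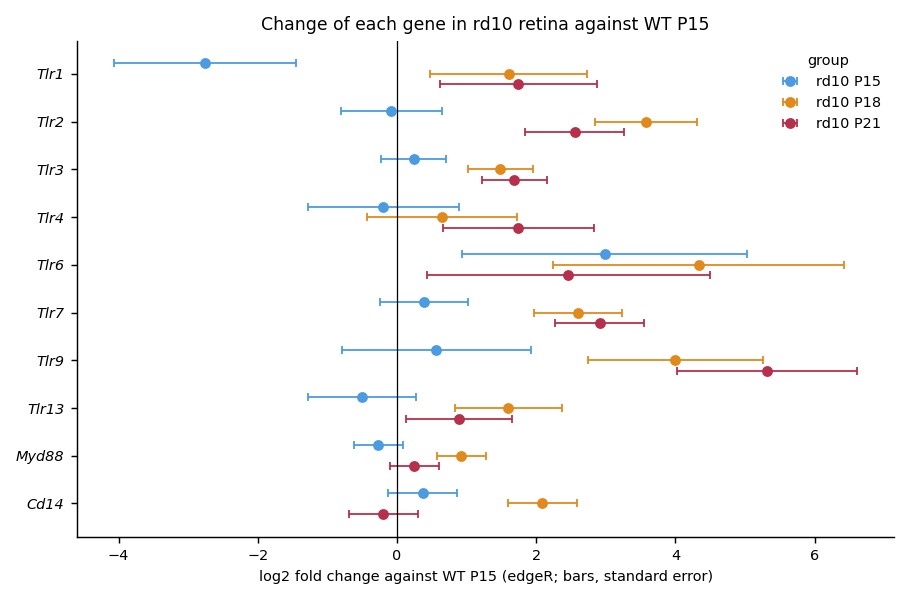
edgeR log2 fold change against WT P15 (x axis) of each gene (y axis) in rd10 P15, P18 and P21, with bars of 1 standard error from 2 libraries per group. At P18 all points lie above 0, at P15 they lie on both sides, and Cd14 returns to -0.20 at P21 while Tlr7 and Tlr9 reach 2.91 and 5.32.

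The 3 comparisons with WT P15 share their control libraries. At P15, 5 of the 10 log2 fold changes were positive (48.8% of all genes), with a median of 0.08 against -0.01 over all genes. The libraries of Tlr6 were above and those of Tlr1 below WT, placements that 24.8% and 24.9% of all genes had. By edgeR 0 of the 10 were called (0.23% of all genes), 0 had an unadjusted p under 0.05 (12.3%), and DESeq2 called 0 (2.12%). At P21, 9 of 10 were positive (50.1% of all genes) with a median of 1.74 against 0.00097, and 7 genes lay above WT in both libraries (24.9% of all genes). The exceptions were Tlr6, Tlr13 and Cd14, which overlapped WT. By edgeR 0 of 10 were called at P21 (0.386% of all genes), 4 had an unadjusted p under 0.05 (11.8%), and DESeq2 called 4 (2.74%), Tlr2, Tlr3, Tlr7 and Tlr9.

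Within rd10 genotype was constant, but both P15 libraries expressed Y-linked genes, and replicate 2 of P18 and of P21 expressed Xist. Sex thus changed in part with age. A term for sex is therefore fitted only from replicate 1 against replicate 2 of rd10 P18 and of rd10 P21. It takes up any other difference between those replicates as well, so that sex and replicate cannot be told apart in it. P18 lay above P15 in both libraries for 9 of 10 genes (21.9% of all genes), with a median log2 fold change of 1.91 against 0.01. By edgeR 0 were called (0.591% of all genes), 8 had an unadjusted p under 0.05 (12.9%), and DESeq2 called Tlr1, Tlr2 and Tlr7 (2.99% of all genes called). Tlr2 came nearest, with a log2 fold change of 3.66 (SE 0.74, edgeR adjusted p = 0.0871), and it was called without rd10 P18 replicate 2 (adjusted p = 0.0175, again with a lone P18 library), rd10 P21 replicate 1 (adjusted p = 0.0309) or rd10 P21 replicate 2 (adjusted p = 0.0251), and with a term for sex (adjusted p = 0.0132), within a range of 3.18e-05 to 0.438 over all alternatives. From P15 to P21, 7 genes lay above (26% of all genes) and Cd14 below (25.5%), with a median of 1.69 against 0.01. By edgeR 0 were called (0.401% of all genes), 5 had an unadjusted p under 0.05 (12.8%), and DESeq2 called Tlr1, Tlr2, Tlr7 and Tlr9 (2.69%). With a term for sex edgeR called Tlr2 here (adjusted p = 0.0482, range over all alternatives 0.0101 to 0.715).

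From P18 to P21, 5 of the 10 log2 fold changes were positive and 5 negative. The levels of 7 genes overlapped, and Cd14, Myd88 and Tlr6 were lower at P21 in both libraries, as 22% of all genes were. The median log2 fold change was -0.27 against -0.0012 over all genes. By edgeR 0 of 10 were called (0.0196% of all genes), 1 had an unadjusted p under 0.05 (10.8%), and DESeq2 called 1, Cd14 (0.582%). For Myd88 the log2 fold change was -0.68 (SE 0.36, edgeR adjusted p = 0.514), and for Tlr9 it was 1.32 (SE 1.02, edgeR adjusted p = 0.644). The 2 rd10 P21 libraries themselves differed, since all 10 genes were higher in replicate 1, with a summed level of 54.5 CPM against 30.1 CPM. The microglia markers of the same libraries summed to 409 and 212 CPM. In rd10 P18, 3 genes (Tlr1, Tlr2 and Myd88) were higher in replicate 1 and 7 in replicate 2, at sums of 55.0 and 54.2 CPM.

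Compared per length, in TPM (counts divided by GENCODE M21 exon length and scaled to the library), Myd88 was highest in every group, and its libraries were separate from those of the next gene. Its mean level was 13.7 TPM in WT and, for rd10, 11.9 at P15, 27 at P18 and 18.5 at P21. In WT P15, Cd14 at 2.39 TPM and Tlr3 at 2.26 TPM followed and overlapped, and Tlr2, Tlr13, Tlr7, Tlr4 and Tlr1 lay between 0.831 and 0.355 TPM, each overlapping its neighbor. Tlr9 and Tlr6 closed the order at 0.0631 and 0.0294 TPM. In rd10 P18, Cd14 at 10.6 TPM and Tlr2 at 10.2 TPM came after Myd88 and overlapped, with Tlr3 at 6.67 TPM overlapping Tlr2. In rd10 P21 the second to sixth places were taken by Tlr3 (8.24 TPM), Tlr2 (5.55), Tlr7 (4.34), Tlr9 (3.10) and Cd14 (2.36), and each of these overlapped the next. Tlr9 thus moved from the ninth place in WT P15 to the fifth, and Cd14 from the second to the sixth.

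The microglia markers differed between the groups as well. Of the 11 described singly, Itgam, C1qa, Fcrls and Tmem119 rose at P18 by the edgeR test (1.48% of all genes called), and Itgam, C1qa and Fcrls rose at P21 (0.386%). DESeq2 called 9 of the 11 at each of these ages (4.7% and 2.74% of all genes). Without WT P15 replicate 1 (adjusted p from 0.0921 to 0.349) or WT P15 replicate 2 (0.0509 to 0.223), none of these 7 calls held, and 1 to 5 of them were lost without any 1 of the rd10 libraries. With a term for sex, and with a replicate block, the 3 calls at P21 and that of Tmem119 at P18 were lost (adjusted p from 0.0579 to 0.0947), and the other 3 held. The level of each gene was also read per 1000 CPM of the 12 markers, a scale that moves also if the markers change per cell. On this scale Tlr2 was at 6.86 and 11.2 in WT and, for rd10, 40.2 and 20.1 at P18 and 17.4 and 7.91 at P21, so that only P18 was apart from WT. Tlr7 went from 6.86 and 8.18 in WT to 10.1 and 14.9 in the P18 mutants and 13.1 and 18.6 in those of P21, above WT at both later ages. Tlr9 was at 0 and 1.49 in WT and, for rd10, 1.73 and 5.77 at P18 and 10.3 and 6.92 at P21.

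Tlr3, Myd88 and Cd14 did not lie above WT on this scale at either later age. Tlr3 was at 36.8 and 48.7 per 1000 in WT P15 and at 25.9 to 39.3 in the 4 later rd10 libraries, so that the groups overlapped. Myd88 was at 137 and 124 in WT and, for rd10, 78.3 and 55.8 at P18 and 31.9 and 56.8 at P21, below WT at both ages. Cd14 was at 10.3 and 19.3 in WT P15 and 17.6 and 17.5 in rd10 P18, where it overlapped, and at 2.86 and 4.61 in rd10 P21, below WT. In all, 4 genes (Tlr2, Tlr6, Tlr7 and Tlr9) lay above WT on this scale at P18, as 2.99% of all genes did, and Myd88 lay below, as 85.0% did. At P21, Tlr7 and Tlr9 lay above (1.88% of all genes), and Tlr13, Myd88 and Cd14 below (84.0%). At P15, Tlr6 lay above (6.56% of all genes) and Tlr1, Tlr13 and Myd88 below (60.0%). Tlr13 was below by a narrow margin, at 5.88 and 14.5 in WT, 5.64 and 5.055 in rd10 P15 and 5.73 and 3.95 in rd10 P21. The nearer WT library held 12 counts of it. No test was made on this scale. With Csf1r alone in place of the 12 markers, Cd14 joined the genes above WT at P18 and none lay below.

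**Figure D3:**
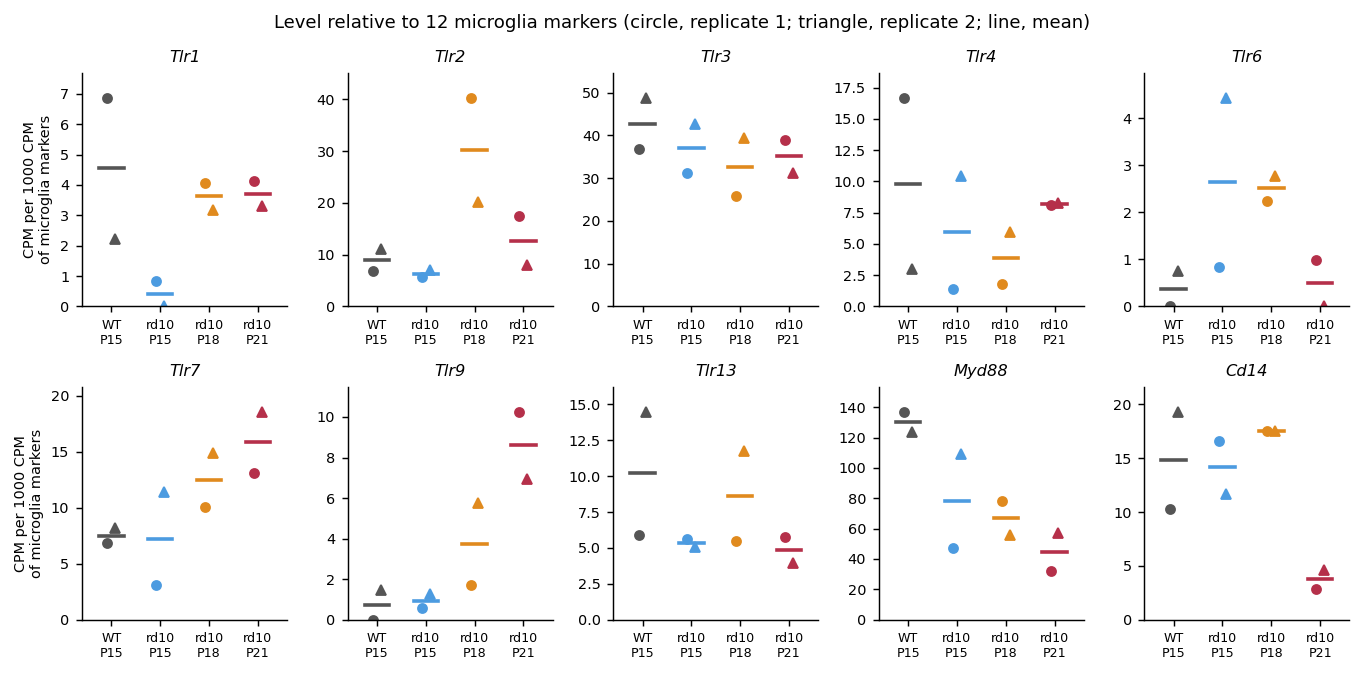
Level of each gene relative to the summed level of 12 microglia markers, in CPM per 1000 CPM of markers (y axes, linear and scaled per gene), by group (x axes); circles are replicate 1, triangles replicate 2 and lines the group means. Tlr7 and Tlr9 are above WT P15 at P18 and P21 and Tlr2 only at P18, while Myd88 is below WT P15 at P18 and P21.

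The summed markers of monocytes and macrophages were also higher in rd10 P18 and P21 than at P15. So was the neutrophil sum, though in some of these libraries it held 1 gene only. The summed level of 9 markers of monocytes and macrophages was 15.3 to 18.9 CPM in WT and, for rd10, 16.9 to 21 CPM at P15, 32.2 to 42 CPM at P18 and 25.6 to 47.9 CPM at P21. Of these, Ms4a7, Mrc1, Cd163, F13a1 and Plac8 were at 0 in WT P15, Cd163 was at 0 in rd10 P18, and H2-Ab1, of antigen presentation, rose at P18 (log2 fold change 4.03, SE 0.76, edgeR adjusted p = 0.0405), a call lost without WT P15 replicate 1 (adjusted p = 0.289) or replicate 2 (adjusted p = 0.183), among others. At P18, 8 of the 9 macrophage and monocyte markers were tested. All 8 were positive against WT P15 (51.0% of all genes), and 7 lay above WT in both libraries (24.1%). By edgeR 1 was called (1.48%), 6 had an unadjusted p under 0.05 (17.4%), and DESeq2 called Ms4a7, F13a1, Ccr2, Mrc1 and H2-Ab1 (4.7%). At P21, 8 were positive (50.1%), edgeR called 0 (0.386%), and DESeq2 called Ms4a7, Mrc1 and H2-Ab1 (2.74%). Plac8 had 238 counts over both rd10 P18 libraries. The 7 neutrophil markers summed to 2.68 to 3.64 CPM at P18 and 2.03 to 5.08 CPM at P21. They summed to 0.518 to 1.33 CPM in WT and 0.211 to 1.05 CPM in rd10 P15. In rd10 P18 replicate 2 and rd10 P21 replicate 1, 6 of these 7 markers were at 0, and the sum was Csf3r alone. At P18, S100a8 and S100a9 had 51 and 14 counts, all in replicate 1. Only 1 of the 7 was among the genes tested, and Ly6g, Retnlg and Ngp were at 0 in all 4 groups. The 8 lymphocyte markers summed to 0.406 to 0.777 CPM in WT and, for rd10, 3.25 to 3.84 CPM at P15, 2.68 to 3.997 CPM at P18 and 0.909 to 2.46 CPM at P21. Most of this was Cd8a, a T-cell co-receptor, with 11 and 0 counts in WT and, for rd10, 89 and 94 at P15, 79 and 37 at P18 and 54 and 23 at P21. DESeq2 called Cd8a at P15 and P18, whereas edgeR did not (adjusted p = 0.215 and 0.212). Cd4 and Nkg7 had 0 counts at P15 and 25 and 15 over both rd10 P18 libraries. Of the 15 counts of Nkg7, at most 3 were in rd10 P18 replicate 2. Cd3e, a part of the T-cell receptor complex, was at 0 in all groups. The part of these cells in the levels of the 10 genes was not tested.

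Of the lists read for resident cells other than microglia, that for reactive Müller glia had the most called genes at P18 and P21. Of the 8 genes in it, edgeR called 6 higher at P18 (Socs3, Stat3, Serpina3n, Gfap, Edn2 and Cebpd) and 5 at P21 (all of these but Socs3). Whole retina does not show which cells these transcripts came from, and the list is not proof of Müller glia. Over all genes, 1.48% were called at P18 and 0.386% at P21. At P15 against WT P15, 0 of the 8 were positive (48.8% of all genes). Both edgeR and DESeq2 called Edn2 lower there (0.23% and 2.12% of all genes called). Of 8 rod genes, Nr2e3 fell at P18 and Gnat1 at P21. Vim of the 8 general Müller genes rose at P18, Cldn5 of 6 endothelial genes rose at P18 and already at P15 (edgeR adjusted p = 0.015), and Lrat of 6 pigment epithelium genes fell at P21. The pigment epithelium genes summed to 31.2 and 98.3 CPM in WT and, for rd10, 140 and 168 CPM at P15, 28.6 and 15.5 CPM at P18 and 23 and 23.9 CPM at P21. Between rd10 P15 and P18, the interval over which the 10 genes had positive log2 fold changes, DESeq2 called Rpe65, Rdh5, Ttr and Lrat lower and edgeR called 0 of the 6 (4 with an unadjusted p under 0.05). Of 4 red blood cell genes, 0 were called at either age by edgeR or DESeq2, with 0 at an unadjusted p under 0.05. Among the calls at P18 and P21, those of Socs3, Stat3, Gfap, Edn2 and Cebpd at P18 held without each single library, and each of the others was lost without at least 1. Müller glia and endothelium can express some of the 10 genes. The part of any of these cells was not tested either.

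Other genes of Toll-like receptor signaling were read from lists, at P18 and P21 against WT P15 unless said otherwise. Their counts can be read against the shares over all genes. At P18, 51.0% of all genes were positive, 24.1% lay above WT, 17.4% had an unadjusted p under 0.05, and edgeR called 1.48% and DESeq2 4.7%. At P21 the same shares were 50.1%, 24.9%, 11.8%, 0.386% and 2.74%. Of 4 other receptors, Tlr5 and Tlr12 were tested, 0 were called by edgeR at P18 or P21, 1 had an unadjusted p under 0.05 at each age, and DESeq2 called Tlr12 at both and already at P15. Tlr12 had 0 counts in WT and, for rd10, 24 and 8 at P15, 18 and 10 at P18 and 36 and 6 at P21. Set against 3 counts over both WT libraries, taken as the upper limit for a count of 0, its level was at least 10.3-fold higher at P15, 8.29-fold at P18 and 12.7-fold at P21. With 1 library left out these bounds were as low as 4.83-fold (without WT P15 replicate 2), 3.87-fold (without WT P15 replicate 2) and 4.05-fold (without rd10 P21 replicate 1). Tlr8 and Tlr11 had at most 10 counts in any group.

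The 8 co-receptors and trafficking partners all had positive log2 fold changes at P18, and 7 were above WT in both libraries. By edgeR 0 were called at P18 (5 with an unadjusted p under 0.05) and 0 at P21 (4 with an unadjusted p under 0.05), while DESeq2 called Cd180, Ly86, Unc93b1 and Lbp at P18 and Cd180 and Unc93b1 at P21. Unc93b1, which carries the endosomal receptors to their compartment, was at 2.03 and 3.43 CPM in WT and, for rd10, 5.51 and 6.31 at P15, 15.4 and 11.6 at P18 and 24.8 and 7.62 at P21. Its groups were separate from WT at every age, with a log2 fold change of 2.30 at P18 (SE 0.54, edgeR adjusted p = 0.0836) and 2.57 at P21 (SE 0.54, edgeR adjusted p = 0.109). At P18 Unc93b1 was called by edgeR without rd10 P21 replicate 1 (adjusted p = 0.0261) or replicate 2 (adjusted p = 0.0208), and at P21 without rd10 P21 replicate 2 (adjusted p = 0.0174). Cd180, a receptor-like protein without a TIR domain, had a log2 fold change of 3.32 at P18 (SE 0.81, edgeR adjusted p = 0.0904). Lbp, which binds lipopolysaccharide, had 0 counts in WT P15 and 53 in rd10 P18, a level at least 15.7-fold higher by the same bound, or 7.32-fold without WT P15 replicate 2.

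The 4 other adaptors with a TIR domain were not called by edgeR or DESeq2 at P18 or P21 against WT P15, with 0 at an unadjusted p under 0.05. Against rd10 P15, DESeq2 called Tirap, the adaptor that links Tlr2 and Tlr4 to Myd88, at both ages. Tirap was at 11.6 and 9.49 CPM in WT and, for rd10, 6.68 and 4.55 at P15, 10.98 and 17.1 at P18 and 13.96 and 11.96 at P21 (log2 fold change of P18 against rd10 P15 1.32, SE 0.30, edgeR adjusted p = 0.131). Ticam1, the adaptor of Tlr3, was at 2.70 and 6.09 CPM in WT and, for rd10, 8.68 and 7.47 at P18 and 8.28 and 6.12 at P21, with a log2 fold change of 0.88 at P18 (SE 0.40, edgeR adjusted p = 0.307). Ticam2, its partner for Tlr4, stayed at or below 1.68 CPM in all libraries.

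The median log2 fold change of the 15 kinases and ubiquitin ligases was -0.09 at P18 and 0.04 at P21. By edgeR 0 were called at either age, 1 had an unadjusted p under 0.05 at P18 and 2 at P21, and DESeq2 called Irak4 at P18 and none at P21. Irak4, the kinase that Myd88 binds, was at 0.739 and 0.518 CPM in WT and, for rd10, 3.76 and 3.15 at P18 and 3.597 and 1.43 at P21. Its log2 fold change was 2.45 at P18 (SE 0.62, edgeR adjusted p = 0.0944) and 2.00 at P21 (SE 0.61, edgeR adjusted p = 0.233). Ikbke had 2.97 at P18 with an SE of 1.31 (edgeR adjusted p = 0.292).

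The 8 NF-kB and IRF factors had positive log2 fold changes at both ages, with medians of 0.91 at P18 and 0.69 at P21. By edgeR 0 were called at either age, 5 had an unadjusted p under 0.05 at P18 and 3 at P21, and DESeq2 called Irf7, Irf5 and Nfkb2 at P18 and Irf7 at P21. Irf7, the factor of the interferon response downstream of Tlr7 and Tlr9, was at 7.39 and 4.92 CPM in WT and, for rd10, 8.56 and 6.98 at P15, 62.9 and 23.2 at P18 and 92.1 and 19.2 at P21. All later libraries exceeded those of P15, and the replicates differed widely (log2 fold change 2.81 at P18, SE 0.85, edgeR adjusted p = 0.183; 3.18 at P21, SE 0.86, edgeR adjusted p = 0.233). With a term for sex the P18 value was 1.72 (SE 0.30, edgeR adjusted p = 0.0478), a call, and without rd10 P21 replicate 1 it was called as well (adjusted p = 0.047). Over all alternatives its adjusted p at P18 ran from 0.0296 to 0.548. Irf7 was higher in replicate 1 at P18 and at P21, which is the contrast that the term for sex rests on. Its log2 fold change was 1.91 at P18 without rd10 P18 replicate 1 and 1.64 at P21 without rd10 P21 replicate 1.

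The 10 inhibitors went both ways. At P18 5 were positive, 5 lay above and 4 below WT, and the median log2 fold change was 0.23. By edgeR 1 was called at P18 (5 with an unadjusted p under 0.05) and 0 at P21 (3 with an unadjusted p under 0.05), and DESeq2 called the same gene, Tnfaip3, at P18 and also at P15. Irak3, an inhibitory relative of the IRAK kinases, was at 0.444 and 0.421 CPM in WT and, for rd10, 0 and 0.106 at P15, 1.58 and 2.96 at P18 and 1.28 and 0.979 at P21 (log2 fold change 2.38 at P18, SE 0.92, edgeR adjusted p = 0.238). The P18 log2 fold change was 0.85 for Nfkbiz (SE 0.25, edgeR adjusted p = 0.129) and 0.54 for Nfkbia, which holds NF-kB in the cytoplasm (SE 0.21, edgeR adjusted p = 0.244).

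Tnfaip3, a ubiquitin-editing enzyme that ends NF-kB signaling, fell at P18. It was the only gene of the pathway lists called by edgeR against WT P15. Its level was 346 and 292 CPM in WT and, for rd10, 138 and 66.1 at P15, 70.7 and 78.7 at P18 and 131 and 190 at P21, so that every rd10 library was below both WT libraries. The log2 fold change was -2.09 at P18 (SE 0.35, edgeR adjusted p = 0.037), -1.64 at P15 (SE 0.34, adjusted p = 0.113) and -0.99 at P21 (SE 0.34, adjusted p = 0.313). The P18 call was lost with a term for sex (adjusted p = 0.113) and without WT P15 replicate 1 (adjusted p = 0.216), WT P15 replicate 2 (adjusted p = 0.117), rd10 P18 replicate 1 (adjusted p = 0.279) or rd10 P18 replicate 2 (adjusted p = 0.118). In these fits the log2 fold change stayed between -2.21 and -1.92.

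Of the 13 inflammatory outputs, 8 were tested and 0 were called by edgeR at P18 (3 with an unadjusted p under 0.05) or at P21 (1 with an unadjusted p under 0.05). DESeq2 called Ccl2 and Ccl4 at P18 and none at P21. Ccl2, the chemokine that attracts monocytes, had 0 counts in all 4 P15 libraries, 582 and 155 at P18, and 42 and 3 at P21. Against the floor of 3 counts the P18 level was at least 218-fold higher than in WT, and still at least 94.3-fold without rd10 P18 replicate 1 and 102-fold without WT P15 replicate 2. At P21 replicate 2 held no more counts than the floor. Ccl4 had 0 and 4 counts in WT and, for rd10, 53 and 88 at P18 and 6 and 0 at P21. Il1b, the precursor of interleukin-1 beta, had 3 and 0 counts in WT and, for rd10, 28 and 55 at P18 and 3 and 0 at P21. Tnf, which was not tested, had 114 counts in rd10 P18 replicate 1 and 4 in replicate 2. Il6 had 0 counts in all libraries. Like Cd14, Ccl4 and Il1b were near their WT level again at P21.

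Against rd10 P15, edgeR called 0 genes of these pathway lists at P18 or P21 (0.591% and 0.401% of all genes), with 0 to 6 genes of a list at an unadjusted p under 0.05 at P18 and 0 to 3 at P21. DESeq2 called Cd180, Tirap, Irak3, Nfkbiz, Ccl2, Ccl3, Ccl4, Il1a and Il1b at P18 (2.99% of all genes) and Cd180, Tirap, Irf7 and Irak3 at P21 (2.69%), each of them higher than at P15.

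**Figure D4:**
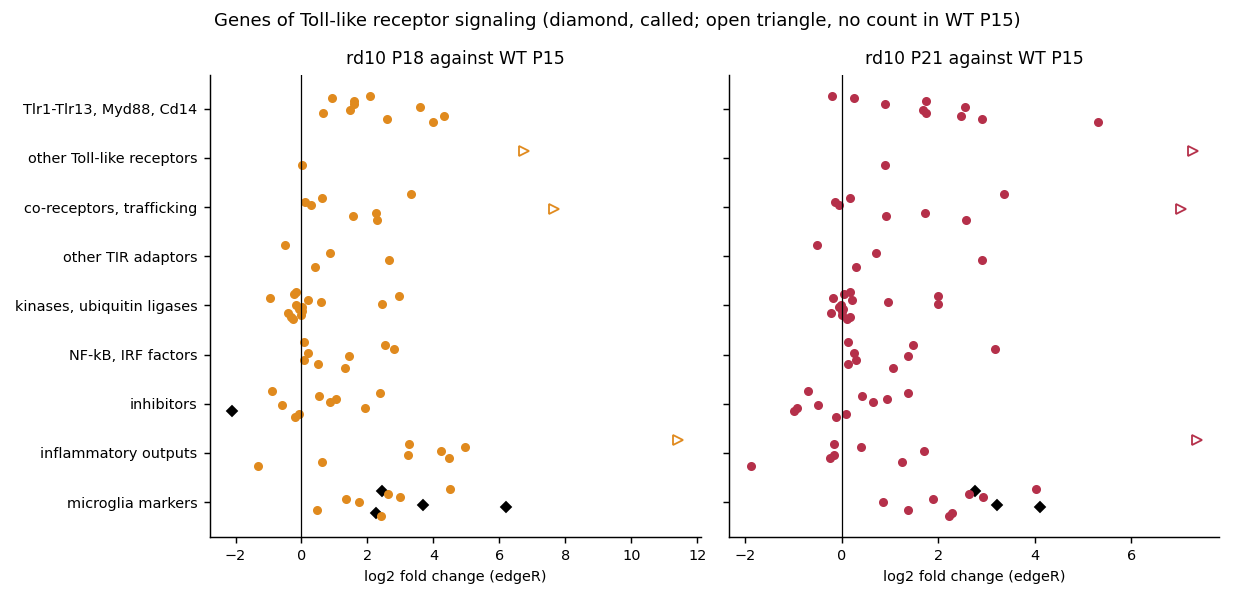
edgeR log2 fold change against WT P15 (x axes) at P18 and P21 of the genes in each list (y axis). Black diamonds are called genes, and open triangles are genes without a count in WT P15, whose fitted value depends on the prior count; Tnfaip3 among the inhibitors is the one called gene outside the microglia markers in the lists drawn, which show 11 of the 12 microglia markers.

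Over the 8 libraries and 16207 genes with a mean of at least 1 CPM, the genes whose log2 CPM ran most like that of Tlr2 were Ctsz (Pearson r = 0.996), Gm12250 (r = 0.988) and Irgm1 (r = 0.987). Those most like Cd14 were Nabp2 (r = 0.979), Mterf1b (r = 0.972) and Dnajc3 (r = 0.964). Those most like Tlr7 were Gprasp2 (r = 0.977), Pde3b (r = 0.972) and Sphk1 (r = 0.966). These are descriptions over 8 points that share libraries and groups.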

How the data were processed

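The raw counts per gene were deposited by the authors, who sequenced poly(A) RNA of whole retina; the submitters' processing notes name HISAT2, and no source used here gives its version, the counter, strand setting, build or annotation. Gene symbols, positions and exon lengths came from GENCODE M21 (GRCm38), and promoter windows from RefSeq (GRCm38.p6). Windows of 7 of the 10 genes were read, and member windows on chromosome 18, where Cd14 lies, were left out.

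The edgeR package 4.0.16 (with limma 3.58.1, under R 4.3.3) tested the counts: filterByExpr with the 4 groups (minimum count 10, total 15), TMM scaling, 1 robust quasi-likelihood fit to all 8 libraries, Benjamini-Hochberg adjustment over 20457 genes. The SE is the log2 fold change over the square root of F. DESeq2 1.42.0 was an alternative. Log2 CPM used a prior count of 2. Counting intervals (exact, 95%) and the floor of 3 counts per group cover counting error only. Exact permutation of 2 against 2 libraries cannot go below p = 0.333. The labels do not state whether the retinas of a group came from separate mice; p-values measure the spread between libraries, which in each group exceeded counting error (chi-square per gene 24.6 to 104).

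The genes, lists and motif letters were chosen with earlier results of these data known, and the letters after the windows were read. Where a library was left out, the other library of its group was assumed to vary like the other groups. All 10 genes are named; of each list, the called genes, and otherwise up to 3 with the largest log2 fold changes; Tirap, Irak3, Nfkbiz, Nfkbia and the lymphocyte and pigment epithelium genes not called by edgeR were named after their values were seen; likeness is given for the 3 genes with the largest log2 fold change over SE at P18. One microglia marker enters only the summed level, and its own result is not reported here.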

Additional observations from a re-analysis of the deposited data

How the results depend on the processing

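The 10 genes were recomputed under 8 other settings and with each of the 8 libraries left out. DESeq2 called 5 of them at P18 against WT P15, 4 at P21, 3 at P18 against rd10 P15, 4 at P21 against rd10 P15 and 1 at P21 against rd10 P18, where edgeR called 0. The cause of this difference between the tools was not tested. Scaling by library size only and no filter on low counts each gave 1 (Tlr2) at P18, the fit of only the 4 libraries compared gave 1 (Tlr7) at P21, and a term for sex gave 1 (Tlr2) at P18 and 1 at P21 against rd10 P15. The term for sex rests on the replicates of rd10 P18 and P21 alone and cannot be told apart from other differences between them. With 1 library left out, the number called ranged from 0 to 1 at P18 against WT P15 and against rd10 P15 and was 0 in the other comparisons. Same-numbered libraries of different groups deviated together with a Pearson r of -0.0816 to 0.102 only. The labels name no pairing, and 2 libraries per group cannot show whether same-numbered retinas were paired. With a replicate block 0 of the 10 were called in each comparison, Tlr1 turned to -0.062 at P21 against rd10 P18, and the P18 adjusted p of Tnfaip3 was 0.0633.

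Directions were least stable at P15 against WT P15. With a term for sex Tlr3 turned to -0.0603 and Tlr4 to 0.18 there. Over the fits that left out 1 library, the log2 fold change at P15 ran from -0.46 to 0.44 for Tlr2, -0.0328 to 0.58 for Tlr3, -2.22 to 1.33 for Tlr4, -0.81 to 1.04 for Tlr7, -0.34 to 4.70 for Tlr9, -1.07 to 0.43 for Tlr13, -0.98 to 0.21 for Myd88 and -0.0789 to 1.03 for Cd14. Tlr4 ran from -0.49 to 2.18 at P18 against WT P15 and from -0.29 to 2.86 against rd10 P15. At P21 against WT P15, Tlr6 ran from -3.18 to 5.67, Tlr13 from -0.0294 to 1.84 and Cd14 from -0.63 to 0.47. Tlr6 ran from -6.17 to 1.05 at P21 against rd10 P15, and at P21 against rd10 P18 Tlr1 ran from -0.63 to 0.63 and Tlr3 from -0.56 to 0.70. None of these were called. The rarest genes, Tlr1, Tlr6 and Tlr9, are limited by depth, with 20, 2 and 4 counts over both WT libraries.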
